A study of Homo sapiens with 3 samples.

Results

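The enzymes that carry acetyl-CoA through mevalonate to squalene were followed in 1205Lu melanoma cells grown as monolayers and as 3D-spheroids. They are ACAT2, HMGCS1, MVK, PMVK, MVD, IDI1, FDPS and FDFT1, 8 of the 17085 genes on the array that have a curated RefSeq transcript accession or stand on one of the lists used here. Every non-control probe carrying one of these symbols was taken, which gave 11 of 41000 probes. The genes were chosen by their place in the pathway with the signals of these same arrays known, the MB over OM and MB over NM ratios included, so all values given for them are a description and none was tested.

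The study asked how gene expression differs when a melanoma line is switched between flat growth in standard medium and growth as attached spheroids, called melanoma bodies, in medium made for human embryonic stem cells (hESC medium). 1205Lu is an established line derived from a lung metastasis that the human melanoma line WM793 formed as a xenograft in a mouse. Total RNA of 3 populations was labelled with Cy3 and hybridised to Agilent whole-genome arrays, 1 array each. OM, the original monolayer, had 14 days in RPMI-1640 with 10% FCS. MB, the melanoma bodies, had 14 days in hESC medium, a DMEM F-12 base with KnockOut serum replacement at 20%. NM, the new monolayer, had the same 14 days as bodies in hESC medium and then 10 days in RPMI-1640 with 10% FCS, with the remaining bodies taken out before RNA was prepared. Medium and growth form changed together, so they cannot be told apart, and nor can either from the single culture behind each array. With 1 array per population there were no replicates.

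Cells build cholesterol, and the isoprenoid chains that anchor proteins in membranes, from acetyl-CoA through mevalonate. The genes of the pathway are a textbook case of feedback: when sterols in the endoplasmic reticulum run low, SREBP transcription factors are released from the membrane, enter the nucleus and raise transcription of these enzymes, and when sterols are plentiful they are held back. SREBPs bind sterol regulatory elements, usually beside binding sites for NF-Y (the CCAAT box) and SP1 (the GC box).

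Promoter sequences are shown for genes whose signals were high together in MB, and for PMVK, which was nearly alike in MB and OM. PMVK stood apart against OM only. Over NM, MB was 1.78-fold higher for MVK, 1.95-fold for FDPS, 1.98-fold for PMVK, 2.50-fold for MVD and 5.17-fold for HMGCS1. A relation between sequence and ratio was not tested. RefSeq windows of the 250 bases before an annotated start (GRCh38.p14) were at hand for 6 of the 8 genes, 9 windows in all. CCAAT, read on both strands and so also as ATTGG, is in capitals. Each sequence runs 5′ to 3′ along the strand of its gene, for HMGCS1 chr5:43313413-43313662 (minus strand), for MVK chr12:109573544-109573793 (plus), for MVD chr16:88663092-88663341 (minus), for FDPS chr1:155308616-155308865 (plus) and for PMVK chr1:154936720-154936969 (minus).
HMGCS1: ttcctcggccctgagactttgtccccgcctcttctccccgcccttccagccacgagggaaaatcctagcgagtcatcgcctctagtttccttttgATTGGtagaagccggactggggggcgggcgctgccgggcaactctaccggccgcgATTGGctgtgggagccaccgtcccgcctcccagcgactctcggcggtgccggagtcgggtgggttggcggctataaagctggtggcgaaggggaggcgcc
MVK: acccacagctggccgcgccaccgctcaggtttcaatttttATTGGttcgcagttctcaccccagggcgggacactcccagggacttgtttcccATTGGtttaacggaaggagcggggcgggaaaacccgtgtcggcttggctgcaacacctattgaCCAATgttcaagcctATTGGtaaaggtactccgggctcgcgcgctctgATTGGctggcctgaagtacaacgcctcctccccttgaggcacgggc
MVD: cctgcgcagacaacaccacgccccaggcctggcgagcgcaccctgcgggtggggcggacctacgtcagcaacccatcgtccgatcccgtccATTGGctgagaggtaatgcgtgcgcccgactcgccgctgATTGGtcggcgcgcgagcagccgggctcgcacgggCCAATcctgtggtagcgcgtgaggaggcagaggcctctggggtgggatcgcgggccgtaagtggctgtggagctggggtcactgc
FDPS: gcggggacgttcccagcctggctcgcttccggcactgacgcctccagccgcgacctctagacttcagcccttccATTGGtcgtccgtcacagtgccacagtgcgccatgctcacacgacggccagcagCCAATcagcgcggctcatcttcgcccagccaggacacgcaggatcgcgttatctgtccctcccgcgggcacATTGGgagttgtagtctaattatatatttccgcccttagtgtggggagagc
PMVK: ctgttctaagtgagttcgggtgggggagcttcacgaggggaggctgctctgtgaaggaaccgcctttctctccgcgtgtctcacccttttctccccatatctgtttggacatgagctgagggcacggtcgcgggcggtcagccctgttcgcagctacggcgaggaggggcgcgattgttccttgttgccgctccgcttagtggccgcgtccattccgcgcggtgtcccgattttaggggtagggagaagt

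The MVK window held 5 CCAAT matches, the MVD and FDPS windows 3 each and the printed HMGCS1 window 2. A second HMGCS1 window, not printed, held 0. The 3 IDI1 windows, also not printed, held 3, 2 and 0, and a pair of the 3 overlap each other in a palindrome. The PMVK window, the only one of its gene, held 0. Of the 9 windows 6 held at least 1 match, and each of these held at least 2. Of all 35116 RefSeq windows of this length, 32.0% held at least 1 and 9.53% at least 2. Over genes, 5 of the 6 had a window with at least 2 matches. HMGCS1 and IDI1 had several windows each, and a share per gene was not computed over all genes. The GC box letters GGGCGG, on either strand, were in 9 of the 9 windows, PMVK's included, and in 42.6% of all windows. The letters TCACNCCAC, a form of the sterol regulatory element, were in 0 of the 9 windows and in 0.883% of all, which says only that these exact letters are not in these windows. In these windows no CCAAT match shared a base with a GGGCGG match. The matches are a description of the sequence, and binding was not measured.

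On each array, between 26516 and 29126 of the 41000 probes were well above background, 77 to 81 outlier spots per array were left out, and the mean of GAPDH, ACTB and HSP90AA1, to which each array was scaled, was 131555 a.u. (arbitrary units) on OM, 128596 on MB and 115402 on NM. Of 12 melanocyte and melanoma markers, 10 were detected in OM, 10 in MB and 9 in NM (well above background), with SOX10 at 6254, 9382 and 4887 a.u., while TYR and TYRP1 were detected in none of them. Of 10 markers of keratinocytes, epithelium, fibroblasts, endothelium and leukocytes, 2 were detected in OM, 4 in MB and 2 in NM, with summed scaled signals of 378, 627 and 321 a.u. KRT5, EPCAM (TACSTD1 on the array), CDH1, LUM, CDH5 and PTPRC were not detected in any population, KRT14 and CD3E were detected in all 3, and DCN (26.8 a.u.) and PECAM1 (87.7 a.u.) in MB only. The part of these signals in the results was not tested.

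The 11 probes were well above background on all 3 arrays, and none of their spots was marked as an outlier or saturated. Each probe was printed once per array, so the only errors at hand are technical. The scanner software gave an error of about 10% of the signal for each of these spots, which makes an SD of 0.20 for a log2 ratio of 2 arrays, and 2 such SDs are a 1.33-fold difference. Probes printed in 10 spots gave a smaller figure, an SD of 0.04 to 0.05 for the log2 ratio of single spots. Neither covers the variation between cultures. Signals below are in a.u. before scaling, and all ratios are of scaled signals. A gene with several probes is represented by its brightest.

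All 8 enzymes had their highest signal in MB (7 with spike-in scaling, which put PMVK a little higher in OM), where 46.5% of all genes did. Of all genes, 61.6% were higher in MB than in OM and 53% higher than in NM. Against OM, 7 of the 8 were at least 2-fold higher, and against NM 5 of the 8, the difference running from 1.19-fold (PMVK over OM) to 6.98-fold (HMGCS1 over OM). Among all genes measured, 5.74% were at least 2-fold higher in MB than in OM and 9.77% at least 2-fold higher than in NM. The 8 had a median log2 ratio of 1.44 in MB over OM, where that of all 13729 genes was 0.14, and 1.21 for MB over NM, where that of all 13617 genes was 0.05. For NM over OM the median was 0.22, beside 0.10 for all 13463 genes. In bulk RNA, a different make-up of cells and a different amount of RNA per cell cannot be told apart.

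**Figure D1:**
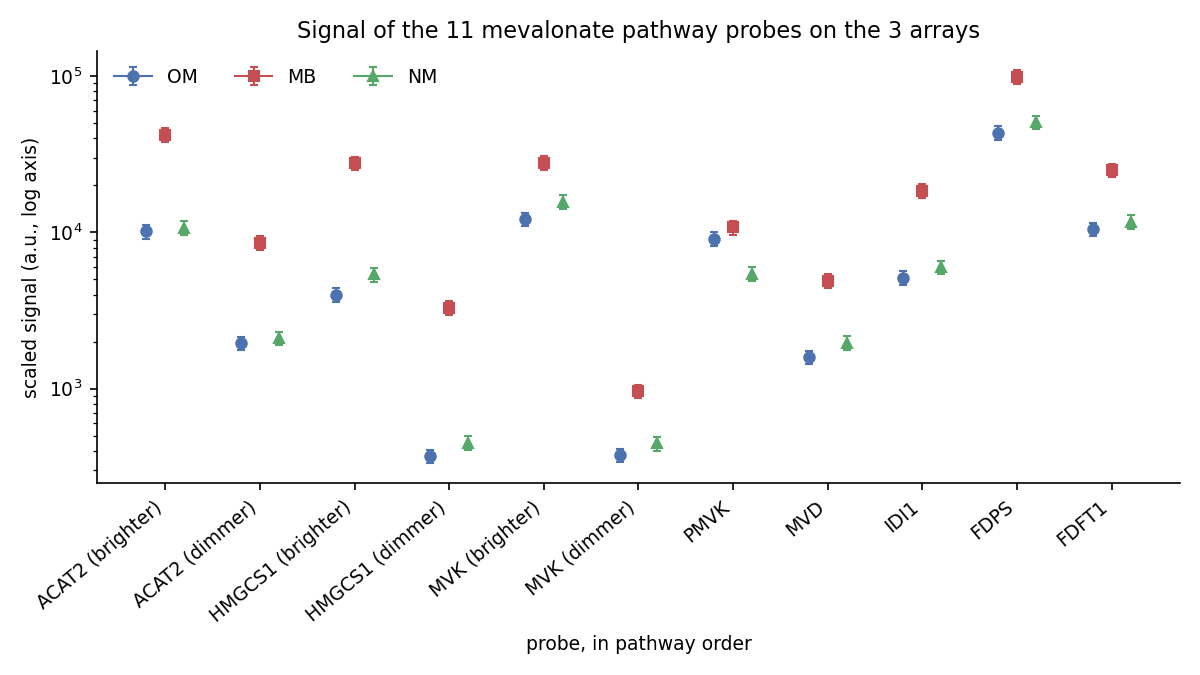
Scaled signal (a.u., log axis) of each of the 11 probes, in pathway order, on the OM, MB and NM arrays. Bars are the scanner software's error for the single spot. The MB point is the highest of the 3 for every probe (with spike-in scaling for all but PMVK), and for all but PMVK the OM and NM points lie close together well below it.

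The pathway opens with ACAT2, the cytosolic thiolase that joins acetyl-CoA units into acetoacetyl-CoA. Its brighter probe (hg17 chr6:160170225-160170284) read 10149 a.u. in OM, 41271 in MB and 9387 in NM. MB stood apart from both monolayers, which were alike. MB was 4.16-fold over OM, rank 267 of 13729 genes from the highest, and 3.95-fold over NM. NM over OM was 1.05-fold. A dimmer probe that starts 85 bases further along (chr6:160170310-160170369) read 1948, 8381 and 1843 a.u., with MB 4.40-fold over OM and 4.08-fold over NM. The probes share no bases but lie 25 bases apart on the same transcript, so they are not independent samples of it.

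HMGCS1, cytosolic HMG-CoA synthase, adds a further acetyl group to the product of ACAT2. Its brighter probe (chr5:43325874-43325933, minus strand) read 3982 a.u. in OM, 27186 in MB and 4719 in NM. This was the largest MB over OM ratio of the 8 genes, 6.98-fold, rank 123 of all genes from the highest, and MB over NM was 5.17-fold. The dimmer probe (chr5:43326838-43326897), 904 bases away, read 369, 3227 and 395 a.u. Both probes placed MB highest by far, and the dimmer one had the larger ratios, 8.96-fold over OM and 7.33-fold over NM. The probes' log2 ratios differed by 0.36 against OM and by 0.50 against NM.

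HMGCS1 was the only one of the 8 past the study's threshold of 5-fold over both monolayers with a signal above 100 a.u., a threshold that 0.947% of genes passed against OM, 1.66% against NM and 0.673% against both together. Its place there depended on the scaling: with arrays scaled to their 75th percentile, to spike-in probes or to the geometric mean of the housekeeping genes, the MB over NM ratio dropped under 5-fold and 0 of the 8 genes passed. The lowest log2 ratio it took under any of 11 alternatives was 2.50 over OM and 2.20 over NM.

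MVK, mevalonate kinase, puts the first phosphate on mevalonate. The brighter probe (chr12:108497661-108497720) read 12152 a.u. in OM, 27381 in MB and 13807 in NM. MB was again highest, with smaller ratios than those of ACAT2 and HMGCS1, 2.31-fold over OM and 1.78-fold over NM. The dimmer probe (chr12:108486567-108486626), 11034 bases away on the genome, read 375, 939 and 392 a.u., with ratios of 2.56-fold and 2.15-fold. At the 2-fold mark the probes therefore fell on different sides for MB over NM.

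PMVK, phosphomevalonate kinase, adds the second phosphate and was the exception among the 8. Its probe (chr1:151710471-151710530, minus strand) read 9085 a.u. in OM, 10524 in MB and 4774 in NM. Here OM lay next to MB and NM stood low, where for the other 7 genes OM and NM were at most 1.35-fold apart. MB over OM was 1.19-fold, a log2 ratio of 0.25, within 2 SDs of the software's error and above 58.5% of all genes. MB over NM was 1.98-fold. NM over OM was 0.599-fold, or 1.67-fold in favour of OM, with 7.38% of all genes further down. With spike-in scaling the log2 ratio of MB over OM was −0.06, the only value below 0 that any of the 8 genes took for that ratio in 11 alternatives, while for NM over OM it ran from −0.93 to −0.67.

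MVD, mevalonate diphosphate decarboxylase, makes isopentenyl diphosphate, the isoprenoid building block. It read 1587 a.u. in OM, 4804 in MB and 1726 in NM. MB was 3.10-fold over OM and 2.50-fold over NM, with the monolayers 1.24-fold apart. The interval deposited for its probe of 60 bases (chr16:87246486-87247239, minus strand) covers 754 bases of the genome.

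IDI1, the isomerase that turns isopentenyl into dimethylallyl diphosphate, had a probe at chr10:1076619-1076678 (minus strand) that read 5127 a.u. in OM, 18026 in MB and 5245 in NM. MB was 3.60-fold over OM, rank 328 of all genes from the highest, and 3.08-fold over NM. OM and NM differed by 1.17-fold, less than 2 SDs of the software's error. The gene table names 3 IDI1 pseudogenes, and cross-hybridisation with them was not tested.

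FDPS, farnesyl diphosphate synthase, links these units into farnesyl diphosphate, from which protein prenylation, dolichol, ubiquinone and sterols all draw. Its probe (chr1:152103342-152103401) read 43411 a.u. in OM, 96910 in MB and 44582 in NM. MB over OM was 2.28-fold, and MB over NM was 1.95-fold, just short of 2-fold. The table names 10 FDPS pseudogenes, which were likewise not tested.

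FDFT1, squalene synthase, commits farnesyl diphosphate to sterols. Its probe (chr8:11733610-11733669) read 10509 a.u. in OM, 24549 in MB and 10269 in NM. MB was 2.39-fold over OM and 2.15-fold over NM. The monolayers differed by 1.11-fold.

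**Figure D2:**
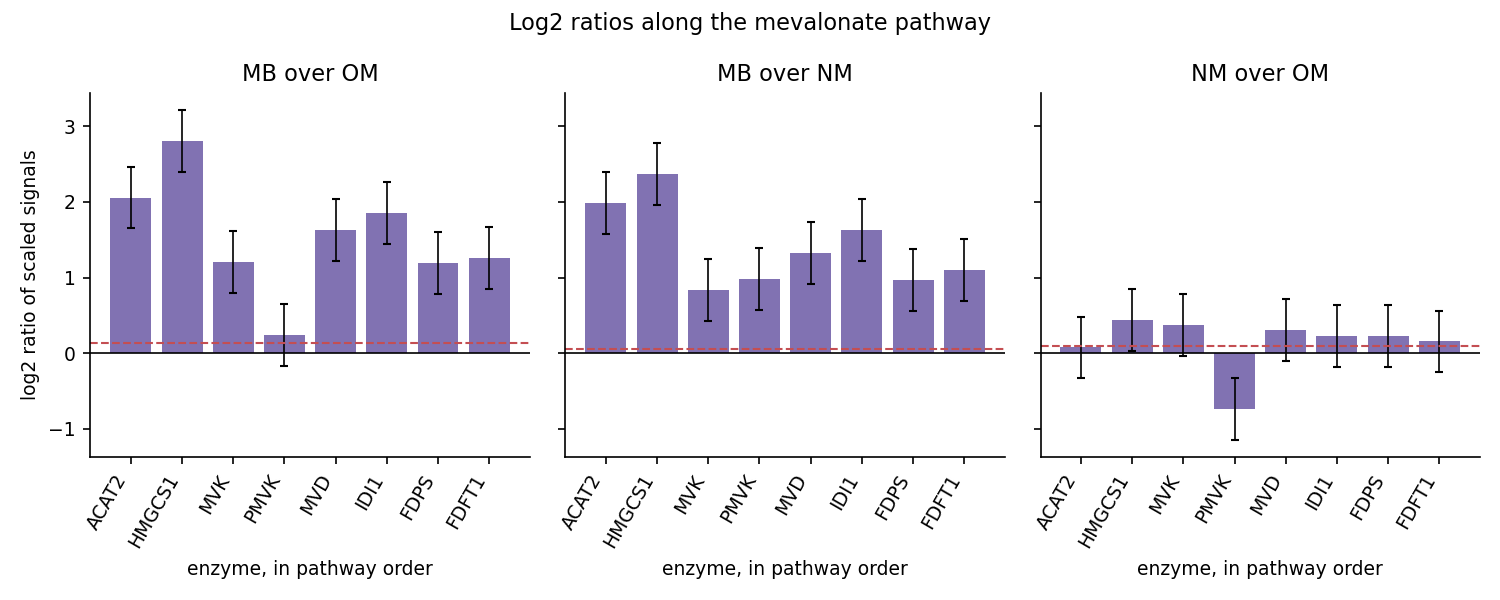
Log2 ratio of scaled signals for each enzyme in pathway order, as bars, for MB over OM, MB over NM and NM over OM. Error bars are 2 SDs of the software's error, and the dashed red line is the median of all genes (0.14, 0.05 and 0.10). For MB over OM the bars run from 0.25 (PMVK) to 2.80 (HMGCS1), and for NM over OM all but PMVK (−0.74) lie between 0.08 and 0.43.

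Along the chain, the ratios for MB over OM were largest at the first steps and at IDI1. The 4 largest ratios over OM were those of HMGCS1 (6.98-fold), ACAT2 (4.16-fold), IDI1 (3.60-fold) and MVD (3.10-fold). Over NM the same 4 were the largest, at 5.17-fold, 3.95-fold, 3.08-fold and 2.50-fold. The 5 genes at least 2-fold over both monolayers were these 4 and FDFT1, where 4.45% of all genes were. MVK and FDPS were past 2-fold over OM alone, and PMVK over neither. Differences larger than 2 SDs of the software's error were seen in 7 of the 8 against OM, where 29.4% of all genes were higher by as much, and in 8 of the 8 against NM, where 31.1% were.

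The return to standard medium could be read from NM over OM. After 10 days there, 7 of the 8 signals were higher in NM than in OM and PMVK was lower, where 58.3% of all genes were higher, and 0 of the 8 differed 2-fold, where 4.03% of all genes were 2-fold higher and 2.7% 2-fold lower. Beyond 2 SDs of the software's error, HMGCS1 alone was higher (1.35-fold, as were 24% of all genes) and PMVK alone lower (as were 15.8%), and the other 6 lay within it. The signs of the small ratios were not stable, since ACAT2 turned negative without scaling (log2 −0.11), with spike-in scaling (−0.06) and with quantile normalization (−0.05), FDFT1 without scaling (−0.03) and FDPS with quantile normalization (−0.03). NM cells had passed through the bodies, and no NM value was taken before 10 days, so the course of the return was not measured.

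**Figure D3:**
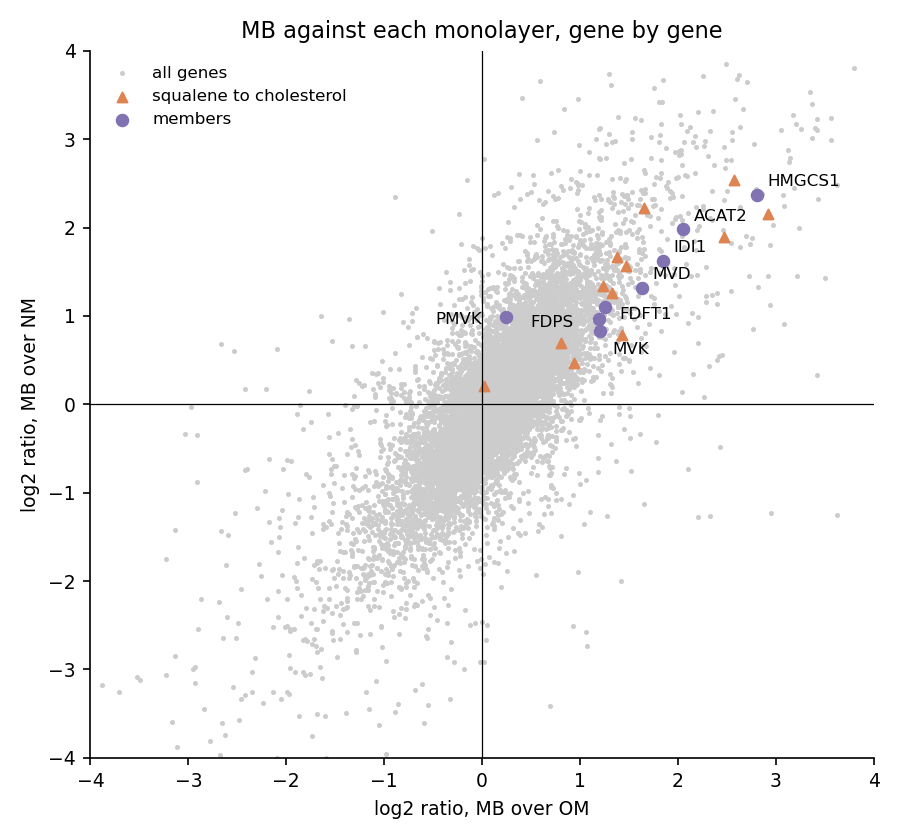
Log2 ratio of MB over OM against that of MB over NM for 11994 genes well above background on all 3 arrays (grey; 94 lie outside the axes, which end at 4 either way), with the 8 enzymes labelled and the 12 genes from squalene to cholesterol as triangles. All 8 enzymes lie above 0 on both axes, with PMVK near the vertical line at 0 (and beyond it with spike-in scaling, at −0.06), and both axes share the MB array.

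The enzymes that lead from squalene to cholesterol had ratios of much the same size. All 12 were higher in MB than in NM, and all 12 higher than in OM except that LBR turned negative without scaling and under 75th percentile, spike-in and geometric mean scaling (log2 −0.28 at the lowest). At least 2-fold higher were 9 of the 12 against OM and 8 against NM, where 5.74% and 9.77% of all genes were. The 12 had median log2 ratios of 1.41 and 1.45. MSMO1 (SC4MOL on the array), a sterol methyl oxidase, read 475 a.u. in OM, 3518 in MB and 712 in NM, 7.57-fold over OM and 4.43-fold over NM. TM7SF2, a sterol reductase, was 5.94-fold and 5.79-fold higher, and DHCR7, which makes cholesterol from its last precursor, 5.54-fold and 3.71-fold. LBR, a lamin B receptor that carries the same reductase activity as TM7SF2, was 1.02-fold and 1.15-fold. It was the one gene of the 12 within 2 SDs of the software's error in both comparisons.

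Steps that feed the pathway differed less as a group. Of the 3 genes for acetyl-CoA supply, ACSS2, which makes acetyl-CoA from acetate, read 6630 a.u. in OM, 17922 in MB and 2747 in NM, 2.77-fold over OM and 5.85-fold over NM. ACLY, which makes it from citrate, was 1.47-fold and 1.60-fold higher. SLC25A1, the mitochondrial citrate carrier, was 1.32-fold over OM and 0.953-fold over NM (log2 0.09 without scaling). The group's median log2 ratios were 0.55 and 0.68.

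Mitochondrial enzymes of ketone body metabolism gave smaller ratios. ACAT1, the mitochondrial partner of ACAT2, read 28392 a.u. in OM, 25369 in MB and 29693 in NM, with MB 0.914-fold over OM and 0.767-fold over NM. OXCT1, which activates ketone bodies for use, was 0.782-fold and 0.721-fold, and BDH1, which interconverts them, was 1.16-fold and 1.88-fold, the former below 1 with spike-in scaling.

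Enzymes that use isoprenoids for ends other than sterols had medians nearer that of all genes. Of 17 genes 16 were measured, 13 higher in MB than in OM (6 with spike-in scaling, 12 with 75th percentile scaling or quantile normalization) and 9 higher than in NM (11 without scaling or with all probes of a gene averaged), with median log2 ratios of 0.28 and 0.42. Of all genes, 61.6% were higher in MB than in OM and 53% higher than in NM, with median log2 ratios of 0.14 and 0.05. At least 2-fold higher were 2 of the 16 against OM and 3 against NM, where 5.74% and 9.77% of all genes were. FNTB, a farnesyltransferase subunit, was 2.06-fold over OM and 2.91-fold over NM. NUS1 (C6orf68 on the array), a partner of DHDDS, at 2.17-fold, and ZMPSTE24, which trims prelamin A, at 2.08-fold, were the others of the 3 against NM and were named after their values were seen. At the low end were DHDDS, which builds dolichol chains, at 0.597-fold and 0.698-fold, and RABGGTB, a subunit of the transferase that prenylates Rab proteins, at 0.809-fold and 0.782-fold.

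Regulators of the pathway were split. Of 10 genes for sterol sensing and uptake 9 were measured, 3 at least 2-fold higher in MB than in OM and 1 at least 2-fold higher than in NM, where 5.74% and 9.77% of all genes were. In both comparisons SREBF1 was at least 2-fold lower in MB, and the share of all genes lower by as much was not computed. The median log2 ratios were 0.44 against OM and 0.22 against NM. SREBF2, which encodes the SREBP most tied to cholesterol synthesis, read 5096 a.u. in OM, 14336 in MB and 8050 in NM, 2.88-fold over OM and 1.60-fold over NM. INSIG1, which keeps SREBPs in the endoplasmic reticulum and is itself an SREBP target, was 2.61-fold and 1.65-fold higher. SREBF1, whose products lean toward fatty acid genes, went the other way with 79032, 36172 and 90290 a.u., 0.468-fold and 0.360-fold. MBTPS2, a protease that releases SREBPs, was at 1.01-fold and 1.09-fold, and its sign changed with the scaling. STARD4, a cholesterol carrier named after its values were seen, was 2.08-fold and 2.78-fold higher.

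**Figure D4:**
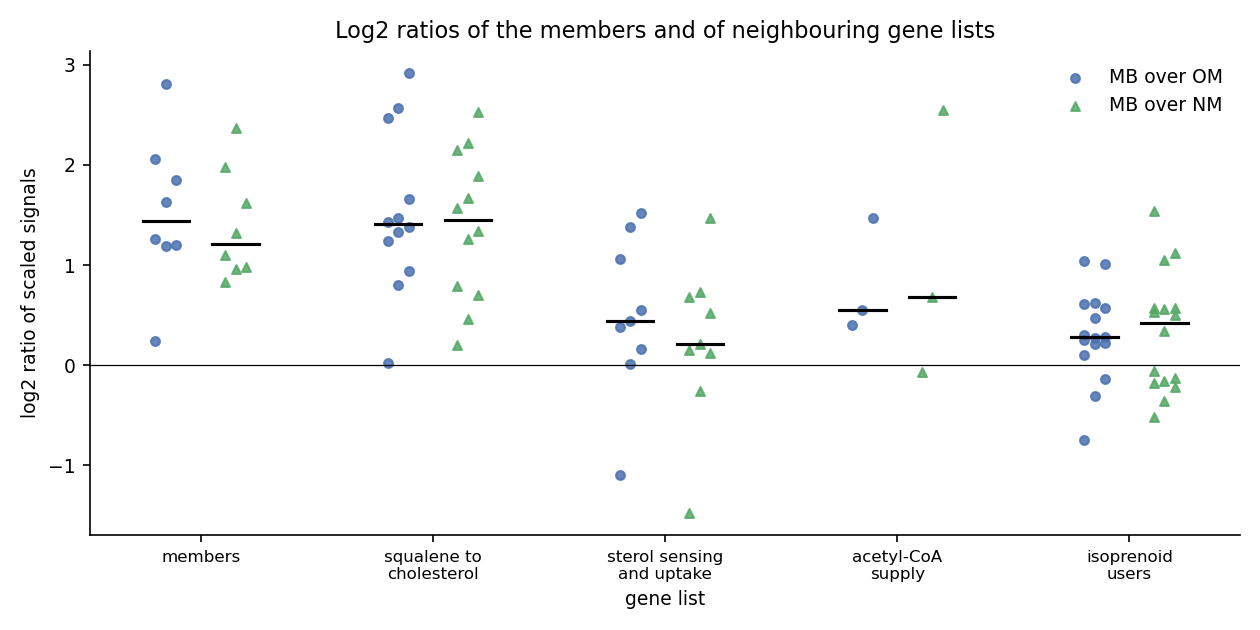
Log2 ratio of scaled signals for the 8 enzymes and 4 of the lists, each point 1 gene, for MB over OM (circles) and MB over NM (triangles), with black lines at the medians. Points for the 8 enzymes and for the genes from squalene to cholesterol all lie above 0 (with spike-in scaling all but PMVK and LBR), and the other lists have points on both sides of it or, for acetyl-CoA supply against OM, above it.

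With 1 array per population the differences between these lists were not tested, and all of them share the MB array.

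Genes whose annotated spans overlap those of the enzymes were measured separately. MMAB, a vitamin B12 enzyme gene that overlaps MVK, read 4607 a.u. in OM, 9337 in MB and 5096 in NM, 2.07-fold over OM and 1.64-fold over NM, close to MVK's own ratios. WDR37, which overlaps IDI1, was 1.80-fold and 2.47-fold. Beside ACAT2, the chaperonin gene TCP1 was 0.838-fold and 0.862-fold, and SOD2, mitochondrial superoxide dismutase, read 21126, 9989 and 110599 a.u., 0.484-fold and 0.0810-fold. The overlapping genes had ratios above 1 at MVK and IDI1 and below 1 at ACAT2.

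The genes outside these lists whose pair of log2 ratios lay nearest the medians of the 8 enzymes were MYEOV, FAM135A (KIAA1411 on the array), SLC23A2, BMF and TNFRSF19, at Euclidean distances of 0.02 to 0.055 among 10866 genes searched. SLC23A2, a vitamin C transporter, read 1209 a.u. in OM, 3133 in MB and 1238 in NM. TNFRSF19, a receptor of the TNF receptor family, read 3714, 9535 and 3751 a.u. The likeness rests on 2 ratios that share the MB array.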

How the data were processed

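The authors hybridised Cy3-labelled RNA from 3 populations, 1 array each, and deposited the spot intensity given by Agilent Feature Extraction 9.5.3.1, with background subtracted and no scaling between arrays. Their value table repeats these intensities, with 130128 of 130128 values within 0.1%. From these, control and outlier spots were left out, spots of a probe were averaged, and arrays were scaled to OM by the average signal of 3 housekeeping genes, GAPDH, ACTB and HSP90AA1 (the methods name HSP90 only). Log2 ratios were computed for genes well above background on at least 1 of the 2 arrays. No test across samples could be run, and the number of arrays limits precision.

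The members and lists were chosen with earlier results of these data known. Named genes are the 8 enzymes, up to 4 per list with the largest and smallest MB over OM ratio, and the 5 nearest in pattern, and some genes of the lists are not reported here. Probe positions were read from the files (hg17), with no exon or UTR annotation of that build used here, and gene names are current symbols, with the array's older name beside them where it differs. Of the 11 probes, 9 had an accession that a current table gives the same symbol, and 2 were not in it. Computations used Python 3.11.15 (numpy 2.4.6, pandas 2.3.3, scipy 1.17.1, matplotlib 3.10.9) and limma 3.58.1 in R 4.3.3, and were tested on simulated data. The 11 alternatives covered scaling, background, outlier spots, the filter on dim genes, the choice among probes of a gene and the value table.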

Additional observations from a re-analysis of the deposited data

How the results depend on the processing

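Across the 11 alternatives, the median log2 ratio of the 8 enzymes ran from 1.14 to 1.46 for MB over OM, from 1.04 to 1.37 for MB over NM and from 0.04 to 0.29 for NM over OM. Of 88 values of single enzymes under alternatives, 87 were above 0 for MB over OM, 88 for MB over NM and 72 for NM over OM. The lowest median for MB over OM, 1.14, came from spike-in scaling, which moved the median of all genes from 0.14 to −0.17. Without scaling, the median of all genes was 0.21 for MB over NM and −0.09 for NM over OM. Relative to the median of all genes, the enzymes' median stayed between 1.28 and 1.38 for MB over OM, between 1.13 and 1.31 for MB over NM and between 0.02 and 0.16 for NM over OM. The 8 genes higher in MB than in both monolayers became 7 with spike-in scaling, through PMVK. The count past 5-fold over both, 1, was 0 with 75th percentile scaling, with spike-in scaling and with the geometric mean of the housekeeping genes, and it was 3 at a 3-fold and 5 at a 2-fold threshold. At 2-fold the count ran from 4 to 6. The median of the genes for sterol sensing and uptake, less that of all genes, was 0.16 for MB over NM and 0.52 with quantile normalization. The cause of these shifts was not tested. No paired analysis was possible because each population has 1 array. Dim signals did not limit the enzymes, whose probes were above background on every array.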
